A study of Mus musculus with 3 samples.

Results

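The 10 genes described here are targets of the peroxisome proliferator-activated receptors (PPARs), 2 of the receptors themselves and further genes of fatty acid handling: Pparg, Ppard, Angptl4, Lpl, Cd36, Fabp4, Fabp5, Adfp (the older name of Plin2), Cpt1a and Mlycd. All probes that carried one of these names in the 3 scanner files were taken, which gave 15 probes of 41125 and 10 genes of 27572. The genes were picked with their ratios on these arrays already known, so the values below are a description and carry no test. The cells were J774A.1, an established mouse macrophage-like line derived from a tumour. They had spent 6 h in 1 of 3 media: Earle's Balanced Salt Solution (EBSS) that held SB202190, a p38 MAP kinase inhibitor, at 10 µM; EBSS alone; or RPMI culture medium with 10% fetal bovine serum (RPMI). EBSS holds salts and glucose and no amino acids, so it differs from RPMI in at least amino acids and serum. The shares of these and of any other differences between the media cannot be told apart. The sources used here do not say whether the cells without inhibitor received its solvent. One reading of the design text would put RPMI into every medium, but the source names, which were followed, do not.

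PPARs are nuclear receptors that bind fatty acids and their derivatives, pair with a retinoid X receptor and switch on genes for taking up, storing and burning fat. Their binding sites are direct repeats of a short half-site with a single base between the copies. In macrophages, PPAR gamma is known for its part in lipid uptake, in the export of cholesterol and in dampening inflammation, and PPAR delta for sensing fatty acids released from lipoproteins.

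Each medium was 1 sample, read in Cy5 on 1 array and in Cy3 on another, so each gene has 2 channels per medium and no replicate culture. The 3 two-colour arrays formed a loop: every pair of media met directly on 1 array and indirectly through the other 2. The log2 ratio is the least-squares value over the loop, and its standard error (SE) comes from how far the 3 ratios miss closing the loop at that brightness. That error holds no difference between cultures, and the number of arrays limits the precision. Between 39.9% and 49.6% of probes were well above background in a channel, no spot was saturated, and both channels of a medium correlated at 0.995 to 0.997 across 10777 genes. A gene is called measured in a comparison when its brightest probe was well above background in both channels of at least 1 of the media compared. A measured gene is counted as changed, higher or lower, if the log2 ratio reached 1 in size, with the direct array and the path through the others agreeing in sign and each reaching 0.5. Of the macrophage markers, 11 of 12 were measured. None of the 7 adipocyte markers and none of the 9 markers of fibroblasts, endothelial, epithelial or lymphoid cells was measured, and Adipoq and Lep were well above background in no channel.

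Among the measured genes, Angptl4 and Mlycd were lower in EBSS than in RPMI and higher with SB202190 than in EBSS alone. Fabp4 was higher in EBSS than in RPMI and lower with SB202190, and Adfp was lower with SB202190. In EBSS against RPMI, 7 of the 10 genes were measured and 3 were counted: Fabp4 as higher, and Angptl4 and Mlycd as lower. In that comparison 7.3% of 11873 measured genes were counted, with 4.48% higher and 2.82% lower. In EBSS with SB202190 against EBSS, 6 were measured and 4 were counted: Angptl4 and Mlycd as higher, and Fabp4 and Adfp as lower. There 3.81% of 11692 genes were counted, with 0.889% higher and 2.93% lower. In EBSS with SB202190 against RPMI, 7 were measured and 2 were counted, Fabp4 and Adfp, both as lower. There 3.89% of 11863 genes were counted, with 1.47% higher and 2.43% lower. As these genes were chosen for such values, nothing is read from their counts against the background shares. The 3 comparisons share their media, and the third ratio is the sum of the other two.

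**Figure D1:**
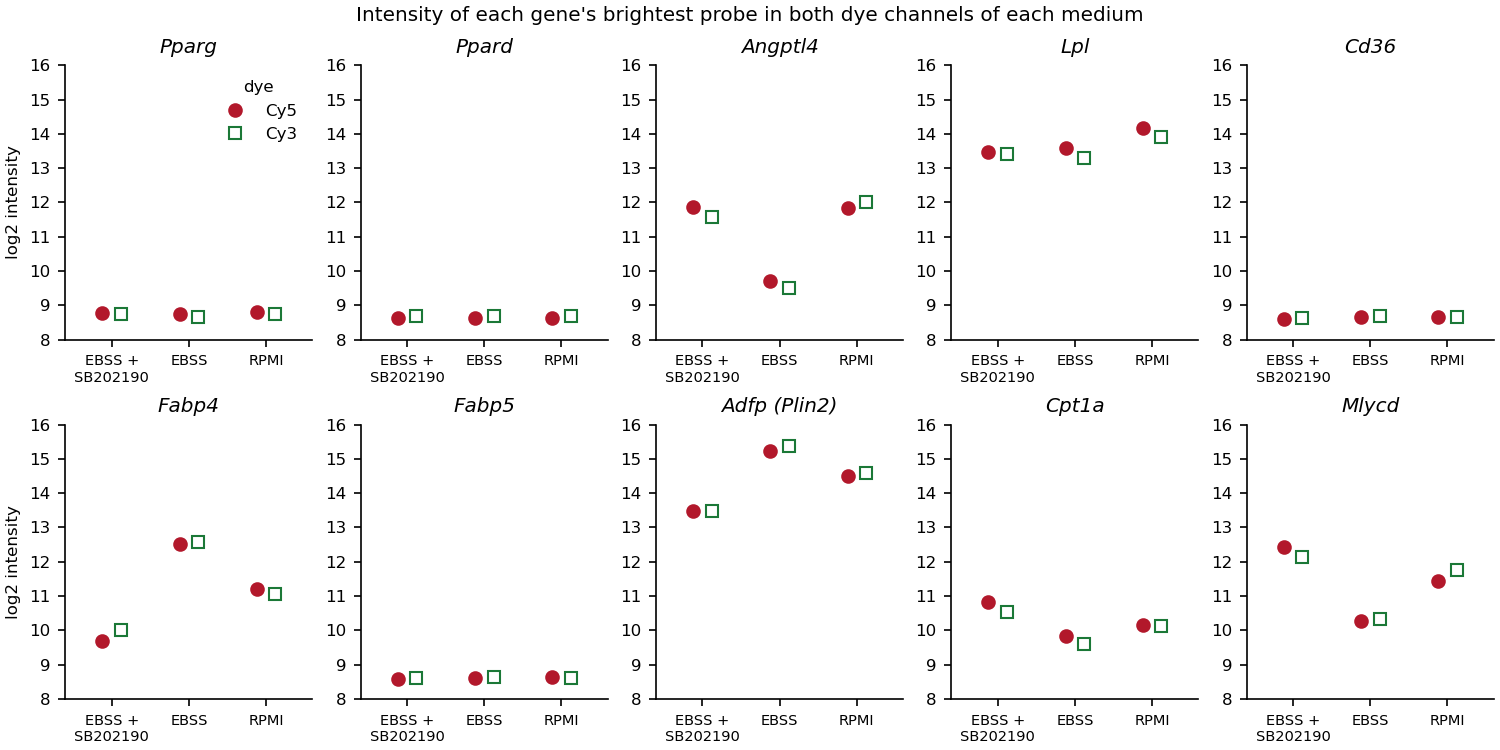
Log2 intensity of the brightest probe of each of the 10 genes (vertical axis, after normalization) in EBSS with SB202190, EBSS and RPMI (horizontal axis), with filled circles for Cy5 and open squares for Cy3. The 3 media do not overlap for Fabp4, Adfp, Cpt1a and Mlycd, the EBSS channels of Angptl4 lie below all 4 others, which overlap, and Ppard, Cd36 and Fabp5 lie between 8.58 and 8.70 in every medium.

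The receptors themselves gave little signal. Pparg, which encodes PPAR gamma, is read by a probe at chr6:115455814-115455873 (mm8, plus strand) that is spotted 10 times per array. Its log2 intensities in Cy5 and Cy3 were 8.79 and 8.75 in EBSS with SB202190, 8.76 and 8.67 in EBSS, and 8.80 and 8.76 in RPMI. It was well above background in 1 of 2 channels in EBSS with SB202190, in 1 of 2 in EBSS and in both in RPMI, so the 3 media overlapped near the detection limit. The log2 ratio was -0.08 ± 0.07 (technical SE) for EBSS against RPMI and -0.03 ± 0.07 for EBSS with SB202190 against RPMI. Over the 9 spots used, the SD of these ratios was 0.03 and 0.02. The offset of the background correction shrinks the ratios of a probe this dim. No absence of change is therefore read from them. Processed signals from the scanner software were 78.7 and 61.7 in Cy5 and Cy3 in EBSS with SB202190. They were 75.9 and 48.5 in EBSS, and 113.9 and 68.5 in RPMI. Among alternatives to the processing, the ratio of EBSS against RPMI ranged from -0.69 to 0.06. That of EBSS with SB202190 against RPMI ranged from -0.40 to 0.07. Ppard, which encodes PPAR delta (chr17:28027240-28027299, mm8, plus strand), was well above background in no channel, with log2 intensities between 8.62 and 8.70. No level of Ppard can therefore be compared between the media.

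Angptl4 encodes a secreted protein that inhibits lipoprotein lipase and is a well-known PPAR target. Its single probe lies at chr17:33381815-33381874 (mm8, minus strand). The log2 intensities in Cy5 and Cy3 were 11.85 and 11.58 in EBSS with SB202190, 9.71 and 9.51 in EBSS, and 11.84 and 12.03 in RPMI. The raw mean signals were 3950.0 and 2779.3 in EBSS with SB202190, 596.0 and 523.6 in EBSS, and 5091.9 and 3922.2 in RPMI, over local backgrounds of 57 to 69. Both EBSS channels lay below all 4 others, while the channels with SB202190 and those of RPMI overlapped. The log2 ratio was -2.23 ± 0.11 for EBSS against RPMI, or 4.71-fold lower, with -2.33 on the direct array and -2.05 through the other 2. That placed Angptl4 at rank 18 from the lowest of 11873 measured genes. With median centring of the arrays in place of loess the ratio was -1.26 and no longer counted, which is -2.07 relative to the median of all genes under that scaling. With SB202190 against EBSS the log2 ratio was 1.97 ± 0.11, or 3.92-fold higher, with 1.88 on the direct array and 2.15 through the other 2. Only 1 of 11692 measured genes had a larger positive ratio. EBSS with SB202190 against RPMI gave -0.27 ± 0.11, with -0.17 and -0.45 on the 2 paths, and was not counted. Its sign turned with median centring (0.22) and with equal spread between arrays (0.01).

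Lpl encodes lipoprotein lipase, the enzyme that Angptl4 inhibits and that frees fatty acids from the triglyceride of lipoproteins. Its brighter probe (chr8:71835357-71835416, mm8, plus strand) had log2 intensities in Cy5 and Cy3 of 13.47 and 13.41 in EBSS with SB202190, 13.59 and 13.28 in EBSS, and 14.16 and 13.90 in RPMI. Both RPMI channels lay above all 4 others, which overlapped. The log2 ratio was -0.67 ± 0.18 for EBSS against RPMI, 0.03 ± 0.18 for EBSS with SB202190 against EBSS, while EBSS with SB202190 against RPMI gave -0.64 ± 0.18, none of them counted. The direct array and the other 2 gave -0.88 and -0.25 for EBSS against RPMI, so the size depended on the path. A second probe (chr8:71830140-71830199) gave log2 ratios of -0.47, -0.16 and -0.63 in the same order, each ± 0.12. Under median centring of the arrays in place of loess, the ratio of EBSS against RPMI turned to 0.60, which is -0.21 relative to the median of all genes under that scaling.

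Cd36 encodes a scavenger receptor that takes up oxidised lipoprotein and long-chain fatty acids. Neither of its 2 probes was measured. The probe at chr5:17295116-17297548 (mm8, minus strand) was well above background in 1 of the 6 channels, an RPMI channel, and that at chr5:17294606-17294665 in none. Their log2 intensities spanned 8.59 to 8.68. Fabp5, which encodes an intracellular fatty acid carrier also found in epidermis, was likewise well above background in none of the 6 channels (chr3:9998905-9998964, plus strand), with log2 intensities between 8.58 and 8.64. These probes give no statement about either gene beyond signal near background.

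Fabp4 encodes a fatty acid binding protein of adipocytes and macrophages that carries fatty acids inside the cell. Its brightest probe (chr3:10186983-10187043, mm8, minus strand) had log2 intensities in Cy5 and Cy3 of 9.70 and 10.02 in EBSS with SB202190, 12.51 and 12.59 in EBSS, and 11.19 and 11.06 in RPMI. The raw mean signals were 720.1 and 629.7 in EBSS with SB202190, 5728.4 and 4381.9 in EBSS, and 2987.0 and 2019.1 in RPMI. The 3 media did not overlap in intensity: EBSS was highest in both dyes and EBSS with SB202190 lowest. The log2 ratio was 1.31 ± 0.11 for EBSS against RPMI, or 2.47-fold higher, with 1.39 on the direct array and 1.14 through the other 2. For EBSS with SB202190 against EBSS it was -2.58 ± 0.11, or 5.97-fold lower, with -2.49 and -2.75 on the 2 paths, which is rank 8 from the lowest of 11692 genes. Against RPMI, EBSS with SB202190 was 2.41-fold lower (log2 ratio -1.27 ± 0.11), a call that was lost with median centring (-0.94). Fabp4 with SB202190 thus lay below its RPMI level, whereas Angptl4 with SB202190 lay close to it.

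Fabp4 had 2 further probes. The second (chr3:10187065-10187794) gave log2 ratios of 1.12 ± 0.11 for EBSS against RPMI, -2.21 ± 0.11 for EBSS with SB202190 against EBSS and -1.09 ± 0.11 against RPMI. It was counted in the same directions as the first. The third (chr3:10190974-10191033), which lies nearer the 5′ end of this minus-strand gene, was dim. It was well above background in none of the 2 channels of EBSS with SB202190, in both of EBSS and in 1 of RPMI, with log2 intensities between 8.55 and 8.92. The mean log2 intensity was 8.65 in EBSS with SB202190 and 8.90 in EBSS. The log2 ratio over the loop, which is scaled within arrays only, was -0.19 ± 0.07 for the same pair, and for EBSS against RPMI it was 0.11 ± 0.07. The third probe had the same signs as the others at a fraction of their size, but the normexp offset of 50 shrinks the ratios of dim probes. Its processed signals from the scanner software were 10.5 and 17.0 in Cy5 and Cy3 in EBSS with SB202190. They were 151.3 and 126.0 in EBSS, and 55.5 and 27.7 in RPMI. The smaller ratio is therefore no measure of a smaller change.

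**Figure D2:**
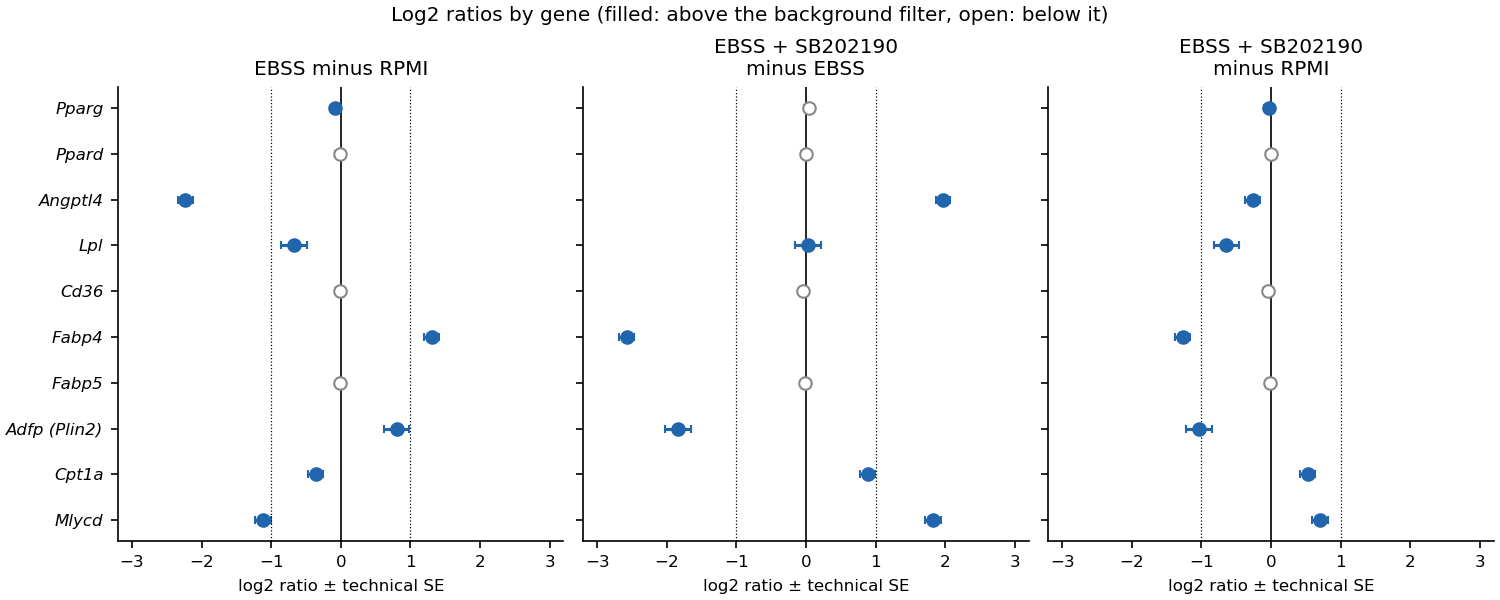
Log2 ratio of each gene's brightest probe (horizontal axis, bars are ± technical SE) for EBSS minus RPMI, EBSS with SB202190 minus EBSS and EBSS with SB202190 minus RPMI, with dotted lines at -1 and 1 and open symbols for genes that were not measured. Angptl4 sits at -2.23, 1.97 and -0.27 across the panels, and Fabp4 at 1.31, -2.58 and -1.27.

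Adfp (Plin2) encodes perilipin 2, a coat protein of lipid droplets and a PPAR target. The 250 bases before its start (RefSeq, GRCm38.p6, chr4:86670060-86670309, minus strand) are shown because Adfp moved in the direction of Fabp4. The capitals mark AGGTCA, the nuclear receptor half-site, which here reads TGACCT and so lies on the opposite strand, 218 to 213 bases before the start.
Plin2 (Adfp): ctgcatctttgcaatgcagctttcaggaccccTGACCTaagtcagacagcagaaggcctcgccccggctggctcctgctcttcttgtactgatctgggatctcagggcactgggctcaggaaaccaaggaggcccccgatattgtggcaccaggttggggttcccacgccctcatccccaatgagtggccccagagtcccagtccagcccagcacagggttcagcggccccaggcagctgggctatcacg
AGGTCA occurred on either strand in 14% of 32851 promoters of that length, so a match is common. A direct repeat of it, AGGTCANAGGTCA, occurred in 0.0335% of them and was not in this window. This promoter has 61.6% G and C, against a median of 52.4%.

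The Adfp probe (chr4:86128003-86128062, mm8, minus strand) was bright, with log2 intensities in Cy5 and Cy3 of 13.47 and 13.47 in EBSS with SB202190, 15.24 and 15.38 in EBSS, and 14.50 and 14.58 in RPMI. Its raw mean signals were 13800.8 and 8503.7 in EBSS with SB202190, 44753.8 and 29583.0 in EBSS, and 31882.8 and 22436.4 in RPMI. The 3 media did not overlap in normalized intensity, in the order seen for Fabp4. EBSS against RPMI gave a log2 ratio of 0.80 ± 0.18, with 0.88 and 0.65 on the 2 paths, which is under the size needed to be counted. EBSS with SB202190 against EBSS gave -1.84 ± 0.18, or 3.58-fold lower, with -1.76 and -1.99 on the 2 paths. Against RPMI, EBSS with SB202190 was 2.05-fold lower (-1.04 ± 0.18), just past the size needed. The 2 paths gave -1.11 and -0.88. That call was lost on the other 2 arrays alone (-0.88) and with median centring (-0.54), while EBSS with SB202190 against EBSS stayed counted (-2.68).

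Cpt1a and Mlycd stand at the gate to fatty acid oxidation. Cpt1a encodes a carnitine palmitoyltransferase of the outer mitochondrial membrane, which passes long-chain fatty acids on to the mitochondrion and is inhibited by malonyl-CoA. Mlycd encodes malonyl-CoA decarboxylase, which removes that inhibitor. The 250 bases before the start of each (RefSeq, GRCm38.p6, Cpt1a at chr19:3323051-3323300 and Mlycd at chr8:119394644-119394893, both plus strand) are set side by side because both genes were higher with SB202190 than in EBSS alone in the direct ratio and in the other 2 arrays. Capitals again mark the half-site.
Cpt1a: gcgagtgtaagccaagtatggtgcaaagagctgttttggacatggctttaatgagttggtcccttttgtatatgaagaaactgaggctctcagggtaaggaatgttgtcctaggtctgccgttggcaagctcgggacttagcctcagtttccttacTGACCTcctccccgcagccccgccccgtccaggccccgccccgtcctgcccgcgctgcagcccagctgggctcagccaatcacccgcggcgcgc
Mlycd: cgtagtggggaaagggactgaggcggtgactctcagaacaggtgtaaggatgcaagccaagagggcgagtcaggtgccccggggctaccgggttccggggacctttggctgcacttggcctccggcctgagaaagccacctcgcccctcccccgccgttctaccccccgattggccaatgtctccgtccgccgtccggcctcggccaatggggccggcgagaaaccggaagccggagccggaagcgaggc
Cpt1a has the half-site once, as TGACCT on the opposite strand, 94 to 89 bases before the start, and Mlycd has none in this window. Neither holds AGGTCANAGGTCA or TGATGCAA, a composite site of the C/EBP and ATF factors found on either strand in 0.791% of promoters. The Mlycd window has 67.6% G and C and that of Cpt1a 59.6%. Among the other genes with a promoter in the RefSeq table, Cd36 and 2 of the 3 Pparg promoters held the half-site and Ppard did not.

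Mlycd (chr8:122296970-122297029, mm8, plus strand) had log2 intensities in Cy5 and Cy3 of 12.44 and 12.14 in EBSS with SB202190, 10.28 and 10.33 in EBSS, and 11.43 and 11.76 in RPMI. The raw mean signals were 6020.9 and 3918.7 in EBSS with SB202190, 1041.5 and 909.9 in EBSS, and 3665.3 and 3232.0 in RPMI. The 3 media did not overlap in normalized intensity, and EBSS was lowest. EBSS against RPMI gave a log2 ratio of -1.12 ± 0.12, or 2.17-fold lower, with -1.09 and -1.17 on the 2 paths. EBSS with SB202190 against EBSS gave 1.83 ± 0.12, or 3.54-fold higher, with 1.85 and 1.77 on the 2 paths, which is rank 7 from the highest of 11692 genes. EBSS with SB202190 against RPMI gave 0.71 ± 0.12, or 1.63-fold higher, and was not counted. With median centring the ratio of EBSS against RPMI was -0.08, which ended that call, and is -0.89 relative to the median of all genes under that scaling.

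The brighter Cpt1a probe (chr19:3385374-3385433, mm8, plus strand) is spotted 10 times per array. Its log2 intensities in Cy5 and Cy3 were 10.84 and 10.53 in EBSS with SB202190, 9.84 and 9.60 in EBSS, and 10.15 and 10.12 in RPMI. EBSS with SB202190 lay above both other media and EBSS below them, with no overlap. EBSS with SB202190 against EBSS gave a log2 ratio of 0.89 ± 0.11, or 1.85-fold higher, with 0.70 and 1.27 on the 2 paths. EBSS with SB202190 against RPMI gave 0.53 ± 0.11, and EBSS against RPMI -0.36 ± 0.11. None was counted, and the last turned to 0.44 with median centring, which is -0.37 relative to the median of all genes there. Over the 10 spots the ratio against EBSS ranged from 0.79 to 0.95 (SD 0.06), and that of EBSS against RPMI from -0.42 to -0.28 (SD 0.04). The spots on an array thus differed by less than the 2 paths did, which were -0.55 and 0.02 for EBSS against RPMI. A second, dim Cpt1a probe (chr19:3384629-3384688) gave log2 ratios of 0.19, 0.12 and -0.07 for the same comparisons, each ± 0.08. The normexp offset of 50 shrinks the ratios of a probe this dim. Its processed signals from the scanner software were 158.5 and 152.0 in Cy5 and Cy3 in EBSS with SB202190. They were 49.6 and 50.6 in EBSS, and 110.9 and 92.5 in RPMI.

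**Figure D3:**
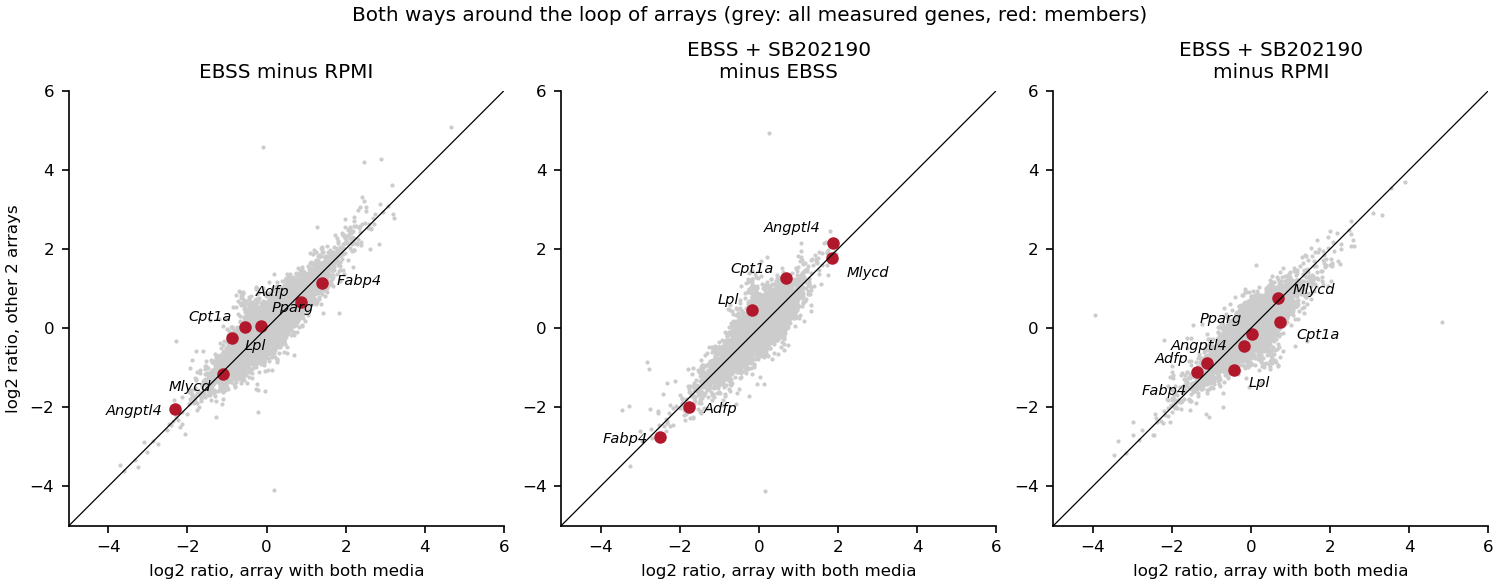
Log2 ratio through the other 2 arrays (vertical axis) against that on the array that held both media (horizontal axis) for all measured genes in grey and the measured members in red, with the line of equality. Angptl4, Fabp4, Adfp and Mlycd lie near the line, and Lpl and Cpt1a lie further off it, at -0.88 and -0.25 and at -0.55 and 0.02 for EBSS minus RPMI.

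The genes whose pair of ratios (EBSS against RPMI, EBSS with SB202190 against EBSS) lay nearest to that of a member were found by Euclidean distance among 11531 genes measured in both comparisons, over 3 media with 1 sample each. Nearest to Angptl4 were Zfp251 at a distance of 0.43 (-1.81 and 1.90), Pold1 at 0.52 (-1.81 and 1.67) and Pstk at 0.55 (-1.69 and 1.88). Pold1 encodes the catalytic subunit of DNA polymerase delta and Pstk a kinase that acts on the tRNA of selenocysteine. Nearest to Fabp4 were Rgs2, a regulator of G protein signalling, at 0.48 (1.70 and -2.84), Dusp1, a phosphatase that acts on p38 and other MAP kinases, at 0.52 (1.69 and -2.93), and Tlr4, the receptor for lipopolysaccharide, at 0.58 (1.36 and -2.0). Nearest to Mlycd were Fbxo31 at 0.18 (-0.94 and 1.85), 2010004M13Rik at 0.28 (-0.98 and 1.58) and Cirbp at 0.28 (-1.11 and 1.55). None of these 9 genes belongs to the lists of lipid genes below.

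Other genes of the same pathways were described through 6 lists, each by its counts and median beside all measured genes, whose median log2 ratio was 0.00 in the comparisons with EBSS and 0.01 between EBSS with SB202190 and RPMI. Of 17 nuclear receptors and cofactors 14 were measured and none was counted in any of the 3 comparisons, where 7.3%, 3.81% and 3.89% of all genes were. Their median log2 ratios were 0.31, -0.07 and 0.15. For EBSS against RPMI the highest was Sirt1 at 0.97, with 1.02 on its other probe. The lowest was Ppargc1b at -0.84, with -0.82 and -0.44 on other probes. With SB202190 against EBSS, Sirt1 had -0.60 and -0.65, and Ppargc1b 0.46, 0.48 and 0.24. Some alternatives counted genes of this list in EBSS against RPMI, such as 1 higher and 2 lower with the processed signals. Rxra and Rxrb encode retinoid X receptors, the partners of PPARs. For EBSS against RPMI, Rxra had a log2 ratio of -0.46 and its other probe -0.03, whereas Rxrb had 0.47 and its other probe 0.45. The background filter was not applied to these other probes. For EBSS with SB202190 against EBSS both genes lay near 0, at -0.06 and 0.02 for Rxra and -0.01 and -0.13 for Rxrb. Ppara was well above background in no channel.

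Of 22 other PPAR-responsive genes 12 were measured in EBSS against RPMI, with 2 counted as higher and none as lower, and a median of -0.05. Acot2, a mitochondrial acyl-CoA thioesterase, had a mean log2 intensity of 11.23 in EBSS and 9.28 in RPMI, a log2 ratio of 1.87 ± 0.11. Abcg1, an exporter of cholesterol, had 13.79 in EBSS and 12.23 in RPMI, a log2 ratio of 1.76 ± 0.13. In EBSS with SB202190 against EBSS, 11 were measured, 3 were counted as lower and none as higher, and the median was -0.13. The 3 were Hilpda, a lipid droplet protein (-1.93 ± 0.12, and -1.83 on its other probe), Abcg1 (-1.86 ± 0.13) and Acot2 (-1.38 ± 0.11). Abca1, which also exports cholesterol, was the only one of 12 counted in EBSS with SB202190 against RPMI, at 9.34 against 10.27 (-1.04 ± 0.11). That call was lost on the other 2 arrays alone (-0.87), with median centring (-0.74) and with equal spread between arrays (-0.91). Under median centring Abca1 lay at -1.07 relative to the median of all genes. With SB202190 against EBSS, Abca1 had -0.99 ± 0.11, just under the size needed to be counted. Acot2, Abcg1 and Hilpda, picked as the genes counted there, had the signs of Fabp4 and Adfp in both comparisons with EBSS. Angptl4, also a PPAR target, had the opposite signs in these comparisons. The genes of the list that were not counted did not all share the signs of Fabp4. Retsat had log2 ratios of -0.46 and 0.62, the signs of Angptl4, and Pex11a had -0.11 and -0.58.

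Of 26 genes of fatty acid oxidation 24 were measured. Acaa1a, a thiolase of the peroxisome, was counted as lower in EBSS than in RPMI (-1.15 ± 0.13) and as higher with SB202190 than in EBSS (1.15 ± 0.13), and it was the only one counted. Its other 2 probes gave -0.62 and -0.58 for EBSS against RPMI and 0.65 and 0.59 with SB202190. Both calls were lost with the median over its probes (-0.62 and 0.65) and with median centring (0.08, which turns the sign, and 0.41). Relative to the median of all genes under median centring, Acaa1a lay at -0.73 and 0.86. The list medians were -0.06 for EBSS against RPMI, 0.19 for EBSS with SB202190 against EBSS, and 0.15 with SB202190 against RPMI. Cpt2, which acts after Cpt1a on the inner mitochondrial membrane, had log2 ratios of -0.84, 0.01 and -0.83 in the same order. Its sign against RPMI with SB202190 was the opposite of that of Cpt1a.

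Of 18 genes of fatty acid uptake, binding and activation 12 were measured, 2 were counted as lower in EBSS than in RPMI and none in EBSS with SB202190 against EBSS. Acsl5, an acyl-CoA synthetase, was one of them, at 11.74 in EBSS and 12.83 in RPMI (-1.13 ± 0.12). Its ratio turned to 0.03 with median centring, which is -0.78 relative to the median of all genes under that scaling. The list medians were -0.01, 0.09 and 0.01.

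Of 21 genes of lipid droplets, storage and lipolysis 13 were measured, and 3 were counted as higher in EBSS than in RPMI. These were Dgat2, which makes triglyceride (1.13 ± 0.11, and 0.52 and 0.23 on other probes), Soat1, which esterifies cholesterol (1.06 ± 0.18, and 1.10 and 0.78 on other probes), and Nceh1, a cholesteryl ester hydrolase (1.04 ± 0.18). The direct array and the other 2 gave 1.26 and 0.66 for Soat1 and 1.25 and 0.62 for Nceh1, so both calls were lost on the other 2 arrays alone, and that of Dgat2 with the median over its probes (0.52). With SB202190 against EBSS none of these 3 genes was counted. Dgat2 had -0.99 there, just under the size needed, and -0.49 and -0.15 on other probes. Soat1 had -0.68, and -0.78 and -0.35 on other probes, and Nceh1 had -0.41. In that comparison Lpin2, a phosphatidate phosphatase, was counted as higher (1.25 ± 0.11). Its 3 other probes gave 0.16, -0.00 and 0.02, but the background filter was not applied to them, and dim probes give ratios near 0. The call was lost with the median over all its probes (0.09) and with median centring (0.69), which is 1.14 relative to the median of all genes there. The list medians were 0.22, -0.02 and 0.21.

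Of 21 genes of malonyl-CoA and fatty acid synthesis 18 were measured, and 2 were counted as lower in EBSS than in RPMI. Fasn, the fatty acid synthase, had a mean log2 intensity of 14.75 in EBSS with SB202190, 13.78 in EBSS and 15.28 in RPMI. Its log2 ratio of EBSS against RPMI was -1.61 ± 0.18, while its other probe, to which the background filter was not applied, gave 0.04. Scd2, a stearoyl-CoA desaturase, had 14.61 in EBSS with SB202190, 13.61 in EBSS and 14.75 in RPMI, with a log2 ratio of -1.21 ± 0.18 for EBSS against RPMI. Median centring ended both calls, at -0.24 for Fasn and 0.13 for Scd2, and that of Fasn was also lost with the median over its probes (-0.79). Relative to the median of all genes under median centring, Fasn lay at -1.05 and Scd2 at -0.68. With SB202190 against EBSS the 2 genes had log2 ratios of 1.00 and 0.96, just under the size needed to be counted. The other Fasn probe gave 0.10 there. With median centring these ratios were 0.19 for Fasn and 0.16 for Scd2, where the median of all genes was -0.45. The list medians were -0.18, 0.32 and -0.08.

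**Figure D4:**
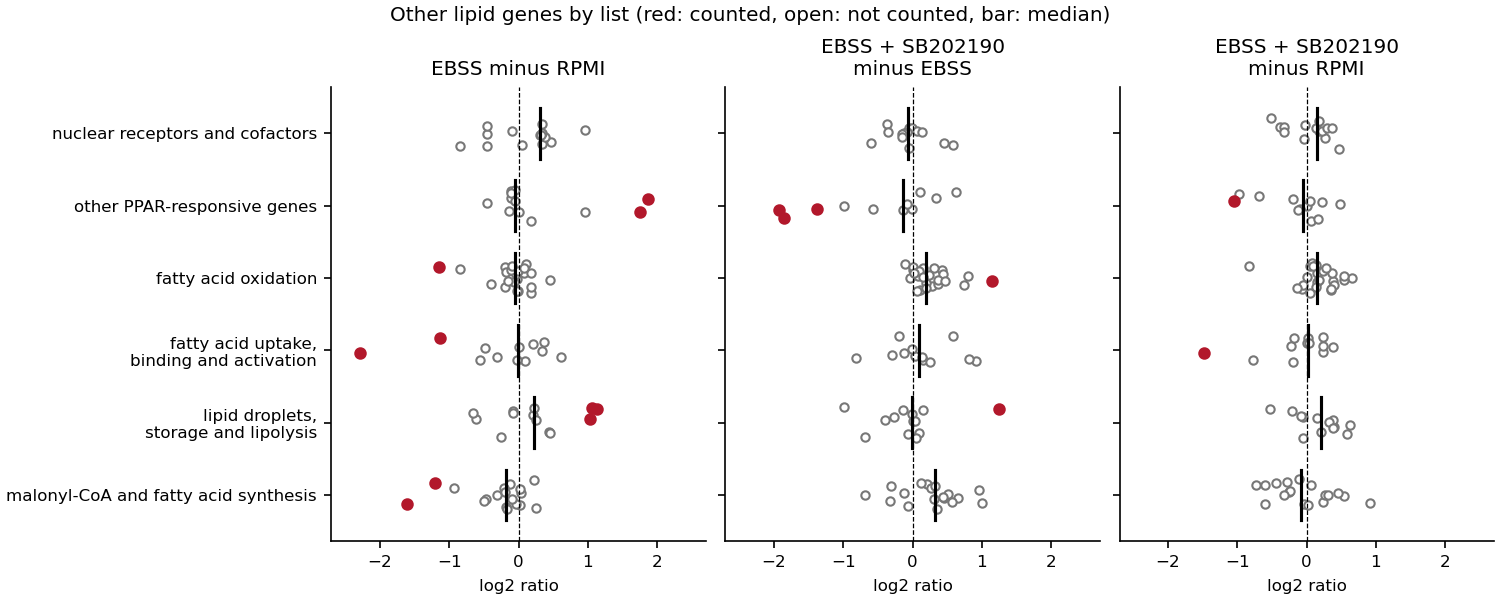
Log2 ratios of the measured genes of the 6 lists (horizontal axis, 1 point per gene, red where counted, vertical bar for the list median) for the 3 comparisons. Most genes lie between -1 and 1, and the list medians lie between -0.18 and 0.32.

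The macrophage marker Cd14, a co-receptor for lipopolysaccharide, moved with Fabp4 and Adfp under SB202190. Its mean log2 intensity was 14.31 in EBSS with SB202190, 15.81 in EBSS and 16.15 in RPMI, and its log2 ratio was -1.56 ± 0.18 for EBSS with SB202190 against EBSS. It was the only macrophage marker counted in that comparison, and the median of the 11 was -0.22, with a range of -1.56 to 0.30. In bulk RNA, fewer cells that express a gene and less of its RNA per cell cannot be told apart, and the part of Cd14-expressing cells in these ratios was not tested.

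**Figure D5:**
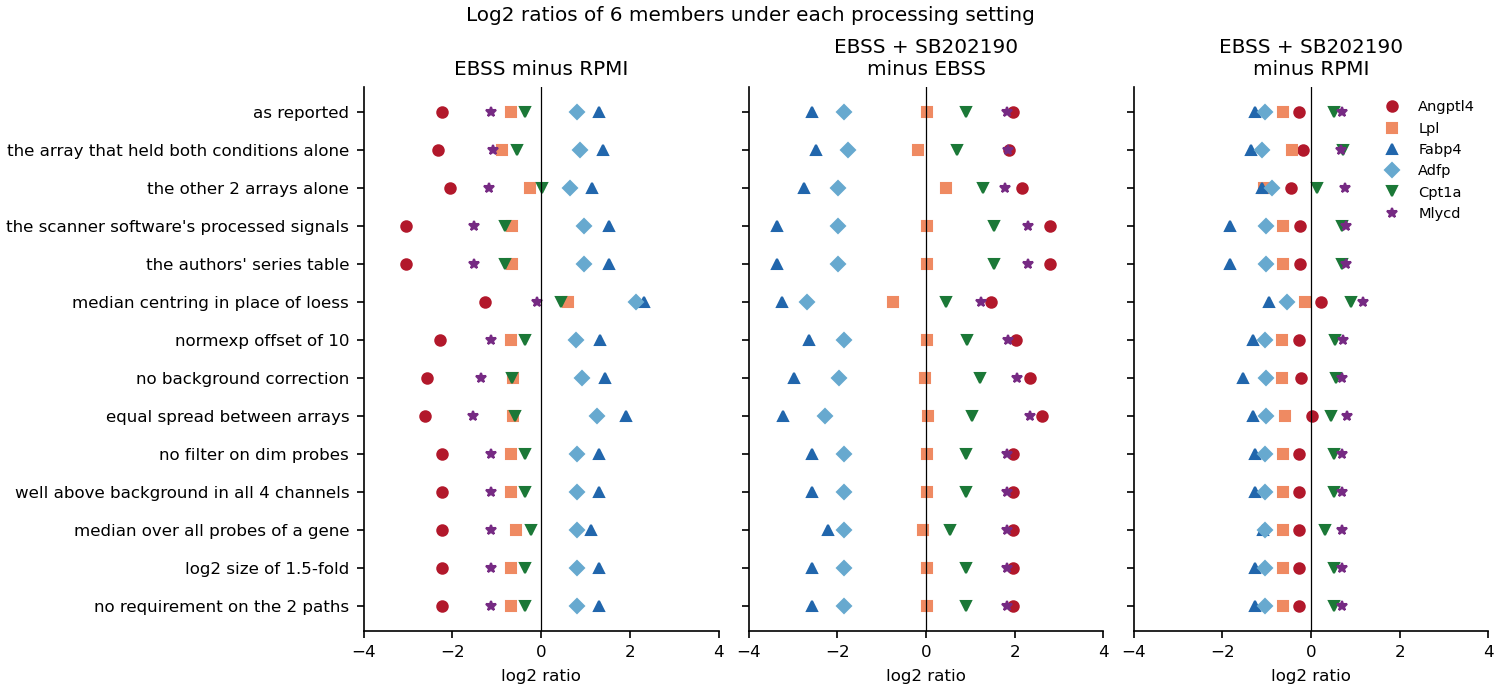
Log2 ratios (horizontal axis) of 6 measured members under the reported processing and each of the 13 alternatives (vertical axis) for the 3 comparisons, 1 symbol per gene. With SB202190 against EBSS, Angptl4 stayed between 1.47 and 2.80, Mlycd between 1.25 and 2.34, Adfp between -2.68 and -1.76 and Fabp4 between -3.36 and -2.21.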

How the data were processed

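RNA of J774A.1 cells after 6 h in 3 media was read on 3 two-colour Agilent 4x44K arrays of 1 slide, 1 sample per medium in both dyes. The deposited scanner files give mean spot intensity and local background intensity without normalization, and processed intensity with background and spatial trend subtracted and dyes normalized, per the file headers. The software was Agilent Feature Extraction 9.5.3.1, as the submitters' processing notes say. The log10 ratios deposited with them come from the processed intensities and were not used. The authors' series table of log2 ratios holds the same ratios averaged over spots, without centring, with medians of -0.0854, -0.0766 and -0.166, as found by setting it against the scanner values. Its scale, centring and direction are therefore known.

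Background was corrected with normexp (offset 50), and each array was loess-normalized with control spots given weight 0, using limma 3.58.1 under R 4.3.3. Levels were also quantile-normalized between arrays on average intensity. Spots flagged as outliers were left out, which removed 49 of 41174 probes, and spots of 1 probe were averaged. A gene was represented by its brightest probe. For the genes of the lists, the other probes and the median over probes were taken without the background filter. Log2 ratios are least-squares values over the loop of 3 arrays. The technical SE is a robust SD of the loop sum in 30 bins of brightness, scaled to 1 ratio, and it includes dye effects that cancel in the ratio. The fit was tested on simulated data. Other steps used Python 3.11.15, numpy 2.4.6, pandas 2.3.3 and matplotlib 3.10.9. With 1 sample per medium, no test was made, and all 3 arrays shared 1 slide.

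Probe positions are on mm8 per the file headers. Of the 41125 probes, 24350 were named through an accession and 6290 and 2422 through a symbol or synonym in a RefSeq table of GRCm38.p6, and 8063 kept the name in the files. Promoters came from RefSeq on GRCm38.p6 for 6 of the 10 genes, as the 250 bases before the start, and motifs were searched on both strands. The members and gene lists were chosen with earlier results of these data known. The genes named are the 10 members, at most 4 counted genes per list and comparison, and the 3 nearest genes in pattern to Angptl4, Fabp4 and Mlycd. Rxra, Rxrb, Ppara, Sirt1, Ppargc1b, Retsat, Pex11a, Cpt2 and Cd14 were added after their values were seen. So were the values of Fasn, Scd2, Abca1, Dgat2, Soat1 and Nceh1 with SB202190 against EBSS. One gene that this rule names is not reported here. The 13 alternatives are given in the closing section.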

Additional observations from a re-analysis of the deposited data

How the results depend on the processing

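No paired analysis was possible because each medium was 1 sample. Of 804 values of single genes under the 13 alternatives, 547 moved by less than 1 technical SE. The alternatives that alter only the filter on dim probes, the size or the path requirement leave the ratio unchanged. Their values are among the 547 by construction, so that share is no measure of stability. The processed signals and the authors' series table hold the same ratios. Another 254 values moved by more without a counted value changing sign, and 3 values of genes counted as reported changed sign. All 3 were for EBSS against RPMI with median centring in place of loess: Acaa1a at 0.0794, Acsl5 at 0.0316 and Scd2 at 0.13. Relative to the median of all genes under that scaling, they lay at -0.73, -0.78 and -0.68. Genes that were not counted also changed sign, such as Lpl at 0.60 and Cpt1a at 0.44 there, and are not among the 3. Median centring moved the median of all genes to 0.81 for EBSS against RPMI, -0.45 for EBSS with SB202190 against EBSS, and 0.34 when the inhibitor was set against RPMI. Relative to those medians, Angptl4 lay at -2.07, 1.92 and -0.12, Fabp4 at 1.5, -2.80 and -1.27, Adfp at 1.33, -2.23 and -0.88, and Mlycd at -0.89, 1.70 and 0.83. In EBSS with SB202190 against EBSS, these 4 kept their call in all 13. Some of the 13 cannot end a call: no filter on dim probes, a size of 1.5-fold and no path requirement. For a gene with 1 probe, the median over probes changes nothing. Angptl4 in EBSS against RPMI kept its call in 12, and its ratio was -1.26 with median centring and -3.06 with the processed signals. Cpt1a with SB202190 against EBSS was counted in 6 of the 13, with ratios of 0.45 to 1.52. The 2 members counted in EBSS with SB202190 against RPMI became 0 with median centring. The cause of these changes was not tested.

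The number of genes counted in EBSS against RPMI was 867 and became 2056 with the processed signals or the authors' series table, 4275 with median centring and 2132 at 1.5-fold. For EBSS with SB202190 against EBSS it was 446 and became 1554 with the processed signals or the series table, 787 with median centring, 732 without background correction, 878 with equal spread between arrays, 275 with the median over a gene's probes and 1442 at 1.5-fold. For EBSS with SB202190 against RPMI it was 462 and became 1248 with the processed signals or the series table, 242 with median centring, 242 with equal spread and 1330 at 1.5-fold. The share of counted genes that were higher in EBSS than in RPMI was 61.4%, against 46.8% with the processed signals and 99.5% with median centring. With SB202190 against EBSS it was 23.3%, against 50.3% with the processed signals, 2.29% with median centring, 33.3% without background correction, 33.6% on the other 2 arrays alone and 35.4% at 1.5-fold. With SB202190 against RPMI it was 37.7%, against 62.8% with median centring. Signal over background limits Pparg, Ppard, Cd36, Fabp5, the third Fabp4 probe and the second Cpt1a probe. In at least 1 medium, each of these was well above background in at most 1 of 2 channels.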
